A study of Mus musculus with 26 samples.

Results

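Chromatin of 10 transcription factor genes was examined in mouse embryonic stem cells (ESCs): the LIM homeobox genes Lhx1, Lhx2, Lhx3, Lhx5, Lhx9, Isl1, Lmx1a and Lmx1b and the POU homeobox genes Pou4f1 and Pou4f2. A gene was followed through the region with the most bases within 1.5 kb either side of one of its RefSeq start sites, in each of 12 deposited tables of regions (mm10). The 10 genes were taken from 38660 RefSeq genes with a start site, of which 17637 had a region in both reChIP tables of E14 cells.

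The series holds 26 libraries from ESCs. E14 is an established wild-type line that was grown in serum with LIF, and its 9 libraries came from 2 replicates prepared on different days. The other 17 libraries came from WT clones 57 and 58 and from clones 43 and 53 that lack both Dppa2 and Dppa4 (DKO), a pair of chromatin proteins of pluripotent cells. For each replicate or clone, mononucleosomes were used for sequential ChIP in the order H3K4me3 then H3K27me3 (K4-K27) and in the reverse order (K27-K4), and part of the material from each first ChIP was sequenced as an in-line total. Each set had 1 IgG–IgG reChIP, from E14 replicate 1 and from WT clone 57. The H3K4me3 antibody was described as also detecting H3K4me2. The labels give sequencing batch A for E14 replicate 1, B for E14 replicate 2 and C for all clones, so the E14 replicates also differ in batch, and differences between E14 cells and clones cannot be told apart from batch. Each genotype rests on 2 clones.

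LIM homeodomain proteins carry LIM domains, which bind cofactors such as Ldb1, next to a DNA-binding homeodomain, and combinations of them specify classes of neurons. Pou4 proteins bind DNA through a POU domain and a homeodomain and act in sensory neurons of the retina, inner ear and ganglia. In ESCs such developmental genes are mostly silent, and their CpG-rich promoters are known for carrying H3K4me3, the mark of active promoters, together with H3K27me3, the mark laid down by Polycomb. A reChIP recovers nucleosomes that were bound by both antibodies in turn. The cells were profiled in bulk, so a lower value cannot separate fewer cells with the marks from fewer marked nucleosomes per cell.

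The promoters shown first are those of the genes with the highest (Isl1) and the lowest (Lmx1b) mean reChIP enrichment in E14 cells, of Lhx3, for which a DKO difference was called in some fits, and of Lhx2 and Lmx1a, the next genes by size of that difference. Each is the 250 bases before a start site, 5′ to 3′ on the strand of the gene, from RefSeq promoter sequences (GRCm38.p6), with every CG dinucleotide in capitals. Promoter sequences were matched for 9 of the 10 genes, all but Lhx5.
Isl1 (chr13:116309689-116309938, minus strand): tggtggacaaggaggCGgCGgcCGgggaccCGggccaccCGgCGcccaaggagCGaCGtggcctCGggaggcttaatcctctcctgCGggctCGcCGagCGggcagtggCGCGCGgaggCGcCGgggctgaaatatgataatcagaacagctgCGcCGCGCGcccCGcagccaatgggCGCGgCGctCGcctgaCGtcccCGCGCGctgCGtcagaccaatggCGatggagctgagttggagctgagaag
Lmx1b (chr2:33641099-33641348, minus strand): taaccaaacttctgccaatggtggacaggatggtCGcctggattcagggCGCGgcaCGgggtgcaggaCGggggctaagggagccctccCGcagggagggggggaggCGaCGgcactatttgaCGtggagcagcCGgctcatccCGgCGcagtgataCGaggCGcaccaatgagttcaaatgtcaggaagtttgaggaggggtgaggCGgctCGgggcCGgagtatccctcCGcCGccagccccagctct
Lmx1a (chr1:167689308-167689557, plus strand): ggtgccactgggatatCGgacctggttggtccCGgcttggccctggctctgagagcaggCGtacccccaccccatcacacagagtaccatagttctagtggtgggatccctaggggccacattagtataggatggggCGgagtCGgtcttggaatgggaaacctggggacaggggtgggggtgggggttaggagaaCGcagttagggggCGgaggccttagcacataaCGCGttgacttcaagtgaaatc
Lhx2, upstream start site (chr2:38339031-38339280, plus strand): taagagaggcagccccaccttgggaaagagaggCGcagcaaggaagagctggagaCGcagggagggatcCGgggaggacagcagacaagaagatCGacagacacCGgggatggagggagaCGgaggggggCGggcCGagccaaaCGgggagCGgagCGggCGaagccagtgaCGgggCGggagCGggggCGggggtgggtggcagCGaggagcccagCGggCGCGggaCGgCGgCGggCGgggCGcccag
Lhx2, downstream start site (chr2:38351058-38351307, plus strand): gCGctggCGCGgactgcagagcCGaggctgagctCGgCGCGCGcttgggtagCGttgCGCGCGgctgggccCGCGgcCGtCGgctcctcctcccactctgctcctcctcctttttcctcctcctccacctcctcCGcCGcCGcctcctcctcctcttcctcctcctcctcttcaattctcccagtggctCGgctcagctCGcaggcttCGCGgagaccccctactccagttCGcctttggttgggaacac
Lhx3, upstream start site (chr2:26208250-26208499, minus strand): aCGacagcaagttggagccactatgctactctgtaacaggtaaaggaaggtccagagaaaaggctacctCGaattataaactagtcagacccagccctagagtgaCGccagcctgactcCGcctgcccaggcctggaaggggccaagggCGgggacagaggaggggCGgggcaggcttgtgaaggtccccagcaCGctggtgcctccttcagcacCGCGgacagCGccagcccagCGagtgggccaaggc
Lhx3, downstream start site (chr2:26206576-26206825, minus strand): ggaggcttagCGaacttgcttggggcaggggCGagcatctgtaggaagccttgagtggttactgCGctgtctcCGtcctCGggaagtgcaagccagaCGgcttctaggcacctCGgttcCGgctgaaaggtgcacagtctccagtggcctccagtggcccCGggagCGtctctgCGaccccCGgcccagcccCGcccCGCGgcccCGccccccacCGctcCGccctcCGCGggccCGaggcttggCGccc

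The Isl1 sequence held 33 CG and that of Lmx1b 19, while Lmx1a held 9. Lhx3 held 11 CG before its upstream start site and 22 before the downstream one, and Lhx2 held 25 and 24. Across 32851 promoters of the same length the median was 6 CG, and 92.1% held at least 1 CG (the letters CG read the same on both strands). Among the promoters not shown, Pou4f1 held the most, with 47 CG, more than 99.8% of all promoters, and Lhx9 the fewest, with 4.

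All 10 genes had a region in both reChIP tables of E14 cells, of WT clones and of DKO clones. The in-line totals listed them less completely: 7 of 10 in the E14 table for total H3K4me3 (without Lhx1, Lhx3 and Lmx1a) and 6 of 10 in the E14 table for total H3K27me3 (without Lhx1, Lmx1b, Pou4f1 and Pou4f2). In the tables of the WT clones 8 genes were listed for total H3K4me3 and 10 for total H3K27me3, and in those of the DKO clones 6 and 7. For every gene the K4-K27 and K27-K4 tables of E14 cells held the same region, and levels below refer to it.

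These E14 regions were wide. Their median width was 15.45 kb, against 3.3 kb for all 21857 regions shared by both E14 reChIP tables. Lmx1b had the widest, 50.85 kb at chr2:33600151-33651000, followed by Lhx2 with 31.05 kb at chr2:38332801-38363850, Lhx5 with 25.2 kb at chr5:120416101-120441300 and Lhx1 with 22.65 kb at chr11:84511951-84534600. The regions of Lhx9 (chr1:138835351-138852000), Lhx3 (chr2:26194651-26208900), Pou4f1 (chr14:104463001-104475900) and Lmx1a (chr1:167685601-167696700) spanned 16.65, 14.25, 12.9 and 11.1 kb. Pou4f2 (chr8:78432151-78439350, 7.2 kb) and Isl1 (chr13:116308051-116312400, 4.35 kb) were narrowest, and 64.4% of all shared regions were narrower than that of Isl1. A wide region averages over more sequence, so its value per kb is not that of its start site alone.

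Levels are given as log2 RPM (reads relative to library size) per kb, and enrichment is the log2 value minus that of the IgG–IgG library of the same set in the same region. Between 6741244 and 47903462 reads stood behind a library, with a median of 16875026. In the 10 regions the IgG–IgG libraries had between 19 and 809 reads, with the fewest at Isl1 (19 in E14 cells), whose enrichment is thus the least precise. K4-K27 libraries had 149 to 6970 reads and K27-K4 libraries 146 to 19948. Total H3K4me3 rested on 56 to 1304 reads and total H3K27me3 on 62 to 5298.

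In E14 cells every gene was enriched in both reChIPs and in both replicates, which follows in part from the choice of regions, since these were listed in the E14 reChIP tables. The median of the 10 genes in K4-K27 was 2.89 in replicate 1 and 2.93 in replicate 2, against 1.00 and 1.87 for all shared regions. In K27-K4 it was 2.66 and 3.91, against 1.60 and 2.58. Total H3K27me3 had medians of 1.07 in both replicates, against 0.20 and 0.15. Total H3K4me3 was the exception, with medians of 0.63 and 0.62 that lay below the 0.95 and 1.16 of all shared regions. The 10 genes thus stood above the typical shared region in both reChIPs and total H3K27me3 and below it in total H3K4me3. No test was made of these levels, since a single IgG–IgG library served as background, and with the IgG–IgG library of the clones instead only 4 of 10 genes stayed above background in total H3K4me3 of both replicates.

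**Figure D1:**
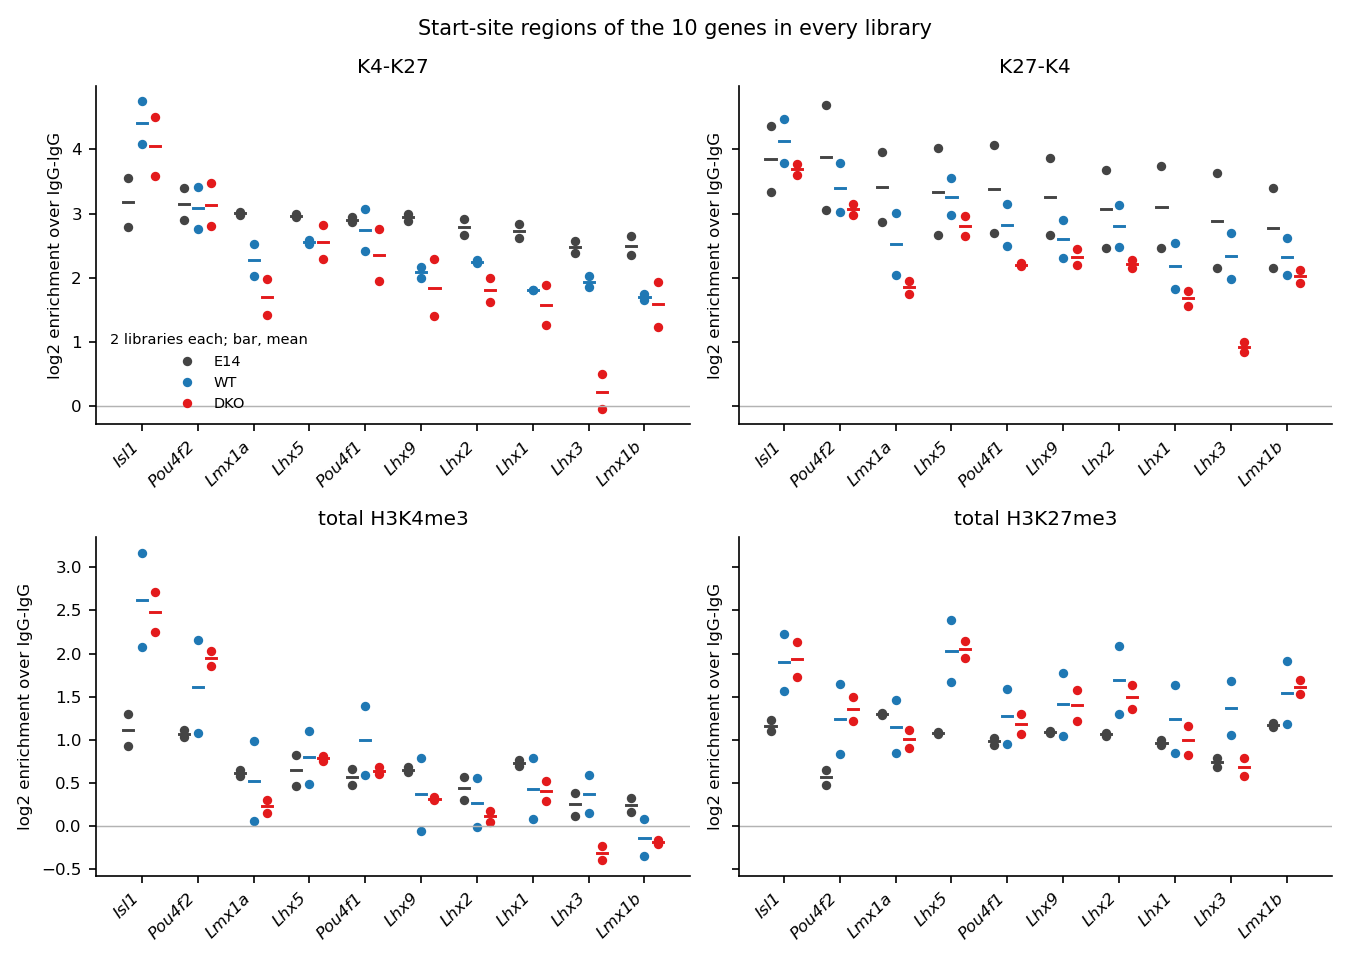
Log2 enrichment over IgG–IgG (vertical axis) of the E14 region of each gene in K4-K27, K27-K4, total H3K4me3 and total H3K27me3; points are the 2 libraries of E14 cells (grey), WT clones (blue) and DKO clones (red), bars their mean, and genes are ordered by mean E14 reChIP enrichment. Lhx3 has the lowest DKO points in both reChIPs, at -0.04 and 0.50 in K4-K27.

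Isl1, which specifies motor and sensory neurons and is also used in heart progenitors and pancreatic islets, had a mean K4-K27 enrichment of 3.18 ± 0.54 (SD, n = 2 here and for all levels), the highest of the 10. That place rests on its low IgG–IgG value, as its level without subtraction, 2.16 log2 RPM per kb, lay below those of Pou4f2 (2.74), Lhx1 (2.53), Lhx5 (2.49), Lhx2 (2.42) and others. Its replicates gave 2.80 and 3.56 in K4-K27, 3.33 and 4.37 in K27-K4, 0.92 and 1.30 in total H3K4me3, and 1.23 and 1.10 in total H3K27me3. Pou4f2, needed by retinal ganglion cells, ranked first in K27-K4 enrichment with 3.88 ± 1.15, from 3.06 and 4.69, and its level without subtraction (3.47) was also the highest. Its K4-K27 values were 2.89 and 3.39. It had the lowest total H3K27me3 of the 10 genes (0.65 and 0.48), while its total H3K4me3 (1.03 and 1.12) was next to that of Isl1. Its relative Pou4f1, which acts in somatosensory neurons, gave 2.94 and 2.87 in K4-K27, with 2.70 and 4.06 in K27-K4, with 0.48 and 0.66 in total H3K4me3 and 0.94 and 1.03 in total H3K27me3. Pou4f2 was the higher of this pair in K27-K4 and total H3K4me3 of each replicate, with and without IgG–IgG subtraction, and the other comparisons between them turned in a replicate on one of these scales.

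Lmx1a and Lmx1b both act in midbrain dopaminergic neurons, and Lmx1b also in serotonergic neurons and the dorsal limb. Lmx1a gave 2.98 and 3.03 in K4-K27, with 2.87 and 3.96 in K27-K4. Lmx1b gave 2.64 and 2.36 in K4-K27, with 2.15 and 3.40 in K27-K4, and its mean K27-K4 level of 2.78 was the lowest of the 10. Their total H3K27me3 was 1.29 and 1.31 for Lmx1a and 1.20 and 1.14 for Lmx1b, and total H3K4me3 was 0.65 and 0.58 at Lmx1a and 0.33 and 0.16 at Lmx1b. Enrichment was higher at Lmx1a within each replicate in both reChIPs and both totals, but without IgG–IgG subtraction this held in both replicates for K27-K4 alone. The Lmx1b region was the wider of the pair.

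Lhx1 and Lhx5 act in the anterior embryo and in interneurons. Lhx1 gave 2.62 and 2.83 in K4-K27, with 2.47 and 3.74 in K27-K4, and Lhx5 gave 2.95 and 2.99 in K4-K27, with 2.66 and 4.03 in K27-K4. Enrichment was higher at Lhx5 in both reChIPs of each replicate, but without IgG–IgG subtraction Lhx1 was the higher in 3 of these 4 libraries. Lhx2, which acts in the eye field and cortex, gave 2.91 and 2.67 in K4-K27, with 2.46 and 3.67 in K27-K4. Lhx9, its close relative in spinal interneurons and the gonad, gave 2.89 and 3.00 in K4-K27, with 2.67 and 3.86 in K27-K4. Enrichment in K27-K4 was higher at Lhx9 in each replicate, and without subtraction Lhx2 was the higher in each, so neither of these pairs had an order that held on both scales.

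Lhx3, a factor of motor neurons and of the pituitary that forms a complex with Isl1 and Ldb1, had the lowest mean K4-K27 enrichment of the 10, 2.48 ± 0.13, from 2.58 and 2.39. Without subtraction its level (2.38) was above those of Lhx9 (2.27), Lmx1a (2.25), Isl1 (2.16), Lmx1b (2.13) and Pou4f1 (2.10). Its K27-K4 values were 2.15 and 3.63, its total H3K4me3 0.39 and 0.11, and its total H3K27me3 0.68 and 0.79. Even so, 85.8% of the shared regions had a lower mean in K4-K27 and 80.2% in K27-K4. In the order of mean K4-K27 enrichment (Isl1, Pou4f2, Lmx1a, Lhx5, Lhx9, Pou4f1, Lhx2, Lhx1, Lmx1b, Lhx3), the replicates of each pair of neighbours overlapped. In K27-K4 every gene was higher in replicate 2 than in replicate 1.

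In the clones the spread between genes was wider. Isl1 gave 4.75 and 4.08 in K4-K27 of WT clones 57 and 58 and 4.47 and 3.78 in K27-K4, and Pou4f2 gave 3.42 and 2.75 and then 3.79 and 3.02. At the other end of enrichment stood Lmx1b, with 1.65 and 1.75 in K4-K27, and Lhx1, with 1.81 and 1.82. The WT medians of the 10 genes in K4-K27 (2.41 and 2.13) lay close to those of all shared regions (2.21 and 1.70), whereas in K27-K4 they were 3.07 and 2.39 against 1.22 and 0.95. In DKO clones the medians were 2.15 and 1.52 in K4-K27, against 2.04 and 1.56, and 2.25 and 2.16 in K27-K4, against 0.89 and 0.91. Isl1 and Pou4f2 were the highest in both reChIPs of both genotypes, with and without IgG–IgG subtraction.

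Total H3K4me3 and total H3K27me3 were balanced differently among the genes. The difference of total H3K27me3 minus total H3K4me3, which does not depend on the IgG–IgG library, was highest at Lmx1b, with means of 0.92 in E14 cells, 1.68 in WT clones and 1.79 in DKO clones. Lhx2 followed in the clones, with 1.42 and 1.38. At Pou4f2 the difference was negative in all 6 replicates and clones, with means of -0.51, -0.37 and -0.59. At Isl1 it was negative in both genotypes of the clones (-0.72 and -0.55) and lay on either side of 0 in E14 cells (-0.20 and 0.30). The other genes were positive in every replicate and clone, from 0.23 (Lhx1 in E14 cells) to 1.26 (Lhx5 in DKO clones) as means. The genes with the narrowest E14 regions, Isl1 and Pou4f2, were thus those with the most H3K4me3 relative to H3K27me3, and the gene with the widest region had the least; width is part of how each value was averaged, and its part in this order was not tested.

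**Figure D2:**
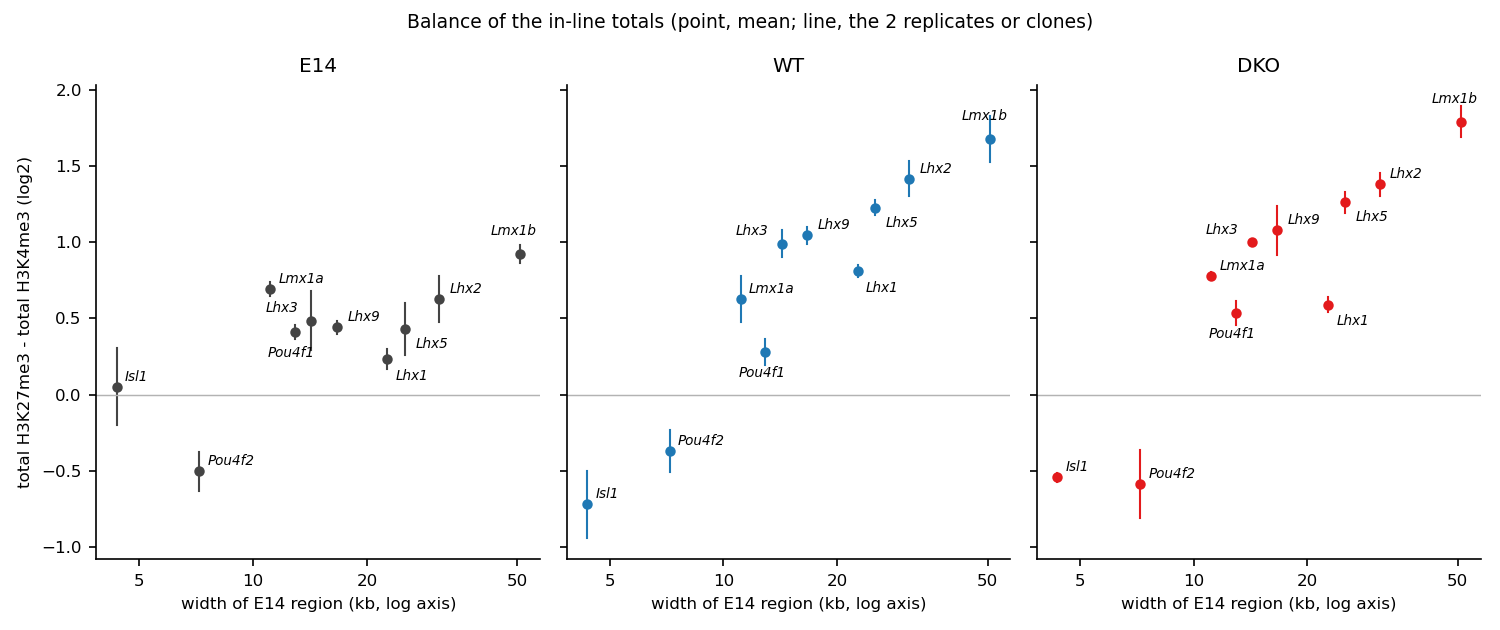
Total H3K27me3 minus total H3K4me3 (log2, vertical axis) of each gene against the width of its E14 region (kb, log axis) in E14 cells, WT clones and DKO clones; points are means and lines join the 2 replicates or clones. Pou4f2 lies below 0 in every panel and Lmx1b is highest in every panel.

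The design also asks whether the order of the antibodies matters. Of the 10 genes in E14 cells, 0 were called between K27-K4 and K4-K27 by limma (adjusted p under 0.05 and a log2 difference above 1 either way), as were 0% of the 21857 shared regions, of which 55 had an unadjusted p under 0.05, none of them at these genes. K27-K4 was higher at all 10 genes, by 0.27 to 0.73 with a median of 0.39, against a median of 0.70 over all shared regions. After each library was centred on its median, 9 of the 10 lay below 0, so the sign here depends on the scaling. It also depends on the replicate. Without the K27-K4 library of replicate 2 the median was -0.27, with 9 of 10 genes below 0, and without that of replicate 1 it was 1.04. Within the replicates K27-K4 minus K4-K27 was -0.15 and 0.91 at Lhx1 and 0.53 and 0.81 at Isl1, and in replicate 1 it was above 0 at Isl1 and Pou4f2 alone.

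In WT clones the test was made at 12025 K4-K27 regions that overlap a K27-K4 region, of which 9.59% were called. None of the 10 genes was called, and 0 had an unadjusted p under 0.05, against 1950 of the 12025 regions. Differences ran from -0.32 at Isl1 to 0.72 at Lhx5 with a median of 0.43, against -0.138 over all regions. The median was 0.02, with 5 of 10 genes below 0, without the K27-K4 library of WT clone 57, 0.77 without that of WT clone 58 and 0.90 with median centring. Median centring added 2 calls, with 1.20 at Lhx5 and 1.02 at Lmx1b, where 2388 of all 12025 regions were called. With the clone as a block, 0 genes were called. Over all regions 135 were then called higher and 2099 lower in K27-K4, against 12 and 1141 without the block.

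DKO and WT clones were compared to ask which regions change without Dppa2 and Dppa4. As a check of the labels, total H3K4me3 at the Dppa2 promoter was 1.90 and 0.77 log2 RPM per kb in WT clones and 2.08 and 1.34 in DKO clones. At Dppa4 it was 2.34 and 1.45 in WT clones and 2.39 and 1.56 in DKO clones. The promoters of both targeted genes carried signal in DKO clones no lower than in WT clones, and such promoter signal checks nothing about the deletion.

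In K4-K27, 0 of the 10 genes were called over regions of the WT table (limma, Benjamini-Hochberg adjustment), against 2.06% of 37723 regions tested in either direction, and 1 gene, Lhx3, had an unadjusted p under 0.05. Of all 37723 regions 8272 had such a p, so 1 of 10 genes does not exceed the background. Of the 10 genes, 9 had a difference below 0, with a median of -0.42 against -0.007 over all regions, where 50.3% lay below 0. That background includes regions listed only in the DKO table, whereas the 10 genes were read in the WT table, and such listing can lower the genes against the background. Over regions listed in both tables the medians were -0.42 for the 10 genes and -0.071 for all regions. Over regions of the DKO table, where listing can raise a difference, they were -0.37 and 0.355. The part of listing in these gaps was not tested. At 4 genes (Lhx1, Lhx2, Lhx3 and Lmx1b) both DKO clones were below both WT clones. The share of all regions with this order was not counted, so these 4 genes are not set against a background. The smallest difference was at Pou4f2, where WT clones gave 4.07 and 3.39 log2 RPM per kb and DKO clones 4.10 and 3.38. At Lhx2 the WT clones gave 3.10 and 2.84 and the DKO clones 2.08 and 1.93, a difference of -0.97 ± 0.59 (SE, adjusted p = 0.33). Lmx1b (-0.65), Lmx1a (-0.55), Isl1 (-0.47), Lhx1 (-0.38), Pou4f1 (-0.31), Lhx9 (-0.28) and Lhx5 (-0.20) differed by less. The median rested on single clones, since it was -0.01 without DKO clone 53, with 5 of 10 genes below 0, -0.18 without WT clone 57, -0.71 without WT clone 58 and -0.81 without DKO clone 43.

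In K27-K4, 0 of the 10 genes were called, against 1.44% of 46737 regions, and again Lhx3 alone of the 10 had an unadjusted p under 0.05. Of all 46737 regions 9090 had such a p, so this count does not exceed the background either. All 10 differences lay below 0, with a median of -0.46 against -0.194 over all regions, of which 56.8% lay below 0 (-0.46 against -0.171 over regions listed in both tables). Over regions of the DKO table the medians were -0.45 and 0.433. With median centring they were -0.24 and 0.027. With quantile normalisation they were -0.14 and 0.047, and 9 of the 10 genes lay below 0. Both DKO clones were below both WT clones at 5 genes (Lhx1, Lhx2, Lhx3, Lhx5 and Lmx1a), again without a share of all regions to set beside them. At Lmx1a the WT clones gave 3.45 and 2.47 and the DKO clones 2.38 and 2.15, a difference of -0.69 ± 0.49 (SE, adjusted p = 0.39). At Lhx2 the WT clones gave 3.29 and 2.53 and the DKO clones 2.30 and 2.09, a difference of -0.72 ± 0.47 (SE, adjusted p = 0.37). The remaining genes other than Lhx3 lay between -0.52 (Lhx1) and -0.33 (Pou4f2). WT clone 57 was above WT clone 58 at every gene, and without WT clone 58 2 genes were called (Lhx3, -1.84, and Lmx1a, -1.18, adjusted p = 0.044), with a median of -0.82 over the 10 genes, where 3778 of all 46737 regions were called. Without WT clone 57 the median was -0.13.

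Lhx3 had the lowest difference of the 10 genes in both orientations. In K4-K27 its start-site region of the WT table (chr2:26205751-26208450) gave 2.86 and 2.55 log2 RPM per kb in WT clones 57 and 58 and 1.58 and 1.41 in DKO clones 43 and 53. In K27-K4 the region was wider (chr2:26196301-26208450) and gave 3.08 and 2.32 in WT clones and 1.29 and 1.18 in DKO clones. The genotypes did not overlap in either orientation. The differences were -1.21 ± 0.60 (SE, adjusted p = 0.21) and -1.47 ± 0.43 (SE, adjusted p = 0.13), neither of which passed the threshold. Over the regions of the DKO table they were -1.06 (adjusted p = 0.40) and -1.11 (adjusted p = 0.34), and 0 of the 10 genes were called there, against 0.195% and 0.298% of regions called lower.

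Over the regions of the E14 tables, an alternative chosen after the data had been seen, Lhx3 was called in both orientations and was the only one of the 10. In K4-K27 its 14.25 kb region gave 2.18 and 2.01 in WT clones and 0.12 and 0.66 in DKO clones, a difference of -1.71 (95% interval -2.67 to -0.74, adjusted p = 0.019), where 3.45% of 24540 regions were called lower. In K27-K4 it gave 2.86 and 2.14 in WT clones and 1.15 and 1.01 in DKO clones, a difference of -1.42 (95% interval -2.27 to -0.56, adjusted p = 0.025), where 5.25% of 36235 regions were called lower. These calls were not kept in all fits that left out a clone. Such a fit has 1 library in an arm, so its spread comes from the other genotype alone, and a lost call does not show a smaller difference. In K4-K27 the call was lost when any clone was left out, with adjusted p from 0.106 (without DKO clone 53) and 0.107 (without WT clone 58) to 0.279 (without WT clone 57) and 0.588 (without DKO clone 43), and in K27-K4 it was lost without DKO clone 43 (adjusted p = 0.657) or DKO clone 53 (adjusted p = 0.727), while the differences stayed between -1.98 and -1.06.

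**Figure D3:**
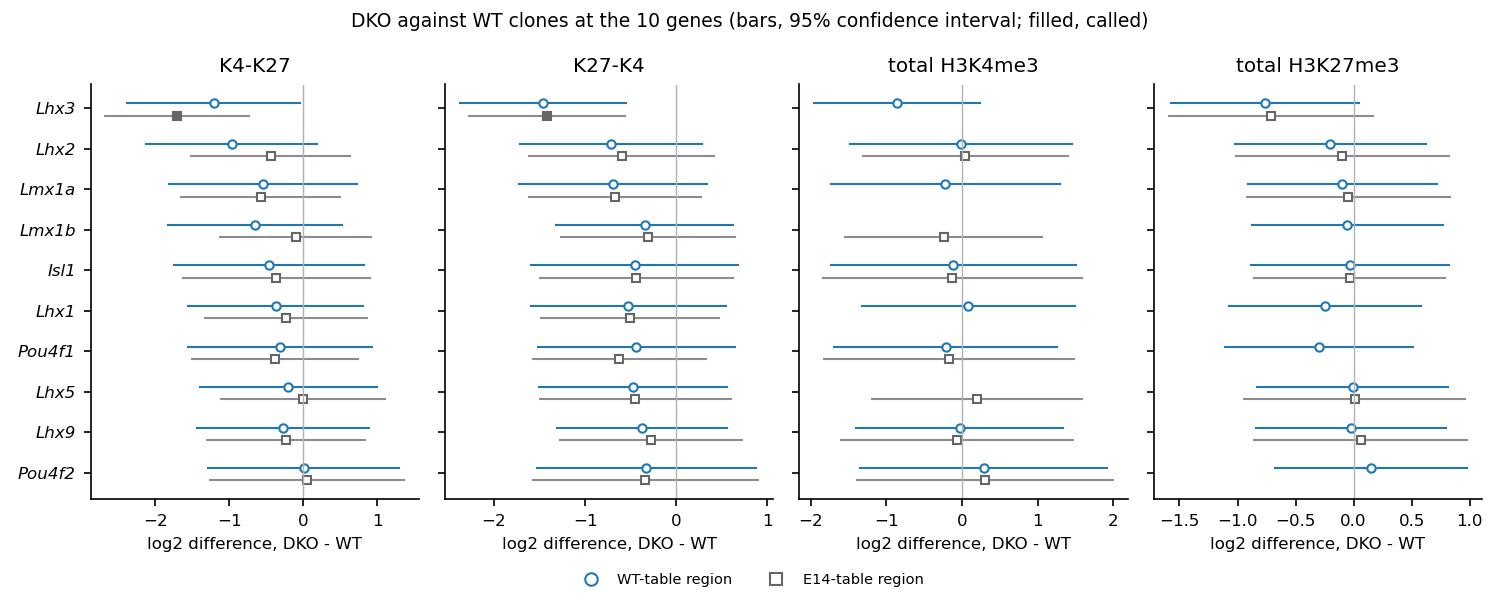
Log2 difference of DKO minus WT clones (horizontal axis) for each gene in K4-K27, K27-K4, total H3K4me3 and total H3K27me3, over the region of the WT table (circles) and of the E14 table (squares); bars are 95% confidence intervals, filled symbols are called, and a missing symbol means that the table lists no region. Lhx3 is lowest in every panel where it has a symbol, and its E14-table regions in the reChIPs, at -1.71 and -1.42, are the only filled symbols.

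The in-line totals were compared in the same way. In total H3K4me3, 0 of the 8 genes with a region were called (4.57% of 43065 regions were) and 0 had an unadjusted p under 0.05 (6622 of those regions had). Differences ran from -0.86 at Lhx3 (adjusted p = 0.53) to 0.29 at Pou4f2, with a median of -0.07 against 0.126 over all regions. In total H3K27me3, 0 of 10 were called (0.416% of 43057 regions were) and 0 had an unadjusted p under 0.05 (6872 of those regions had). Here 9 of 10 lay below 0, from -0.76 at Lhx3 (adjusted p = 0.34), with a median of -0.08 against 0.139 over all regions. Over regions listed in both tables, 9 genes had a median of -0.06 and all regions one of -0.063, so the gap was gone there. The signs of these medians turned when a clone was left out, to 0.42 in total H3K4me3 and 0.27 in total H3K27me3 without WT clone 57 and, in total H3K4me3, to 0.11 without DKO clone 53. With E14 regions none of the genes was called in either total, against 2.04% and 0.799% of regions called lower.

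Since the start-site regions covered only part of the domains, every region of the WT and DKO tables inside an E14 region of the 10 genes was then examined, a choice made after the data had been seen. The WT tables held 26 such regions for K4-K27, 16 for K27-K4, 18 for total H3K4me3 and 11 for total H3K27me3, and the DKO tables held 19, 14, 12 and 11. The regions called were 1 of 26 in K4-K27 and 1 of 18 in total H3K4me3 of the WT tables, where 2.06% and 4.57% of all regions were called in either direction, and 1 of 14 in K27-K4 of the DKO table, where 0.298% were called lower. Single calls among so few regions do not set the 10 genes apart from the background. All 3 lay within Lhx3, downstream of its start sites. At the other 9 genes 0 regions were called in any of the 4 ChIPs.

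The called total H3K4me3 region of the WT table, chr2:26201701-26203500 (1800 bp), gave 2.48 and 1.72 log2 RPM per kb in WT clones and -0.12 and -0.24 in DKO clones, from 190, 99, 45 and 37 reads. The difference was -2.28 ± 0.57 (SE, 95% interval -3.40 to -1.15, adjusted p = 0.0050). The DKO table for total H3K4me3 lists no region of Lhx3, so this one was listed through the WT clones, where it is high, and a lower DKO value was in part fixed by that listing. The called K4-K27 region of the WT table, chr2:26200351-26205750 (5400 bp), gave 2.80 and 2.66 in WT clones and 0.28 and 0.85 in DKO clones, from 347, 366, 69 and 126 reads. The difference was -2.17 ± 0.63 (SE, 95% interval -3.40 to -0.93, adjusted p = 0.036). The DKO table for K4-K27 lists only the part of Lhx3 around its start sites (chr2:26205001-26208000), so the same holds for most of this region. The K27-K4 region does not have this limit, as it comes from the DKO table. The called K27-K4 region of the DKO table, chr2:26201701-26204550 (2850 bp), gave 4.22 and 3.11 in WT clones and 1.38 and 1.19 in DKO clones, from 843, 421, 173 and 111 reads. The difference was -2.39 ± 0.49 (SE, adjusted p = 0.048). In all 3 the genotypes did not overlap, and the centres lay 3.97, 3.52 and 3.45 kb downstream of the nearest Lhx3 start site.

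The directions held in every fit, but the calls did not. The K4-K27 call was lost when any of the 4 clones was left out (adjusted p = 0.086 without WT clone 57, 0.078 without WT clone 58, 0.24 without DKO clone 43 and 0.11 without DKO clone 53), with differences from -2.45 to -1.88. The total H3K4me3 call was lost without DKO clone 43 or DKO clone 53 (adjusted p = 1.00 for each), with differences of -2.34 and -2.22. The K27-K4 call was lost without DKO clone 43 (adjusted p = 0.963) or DKO clone 53 (adjusted p = 0.953), with differences of -2.48 and -2.29.

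**Figure D4:**
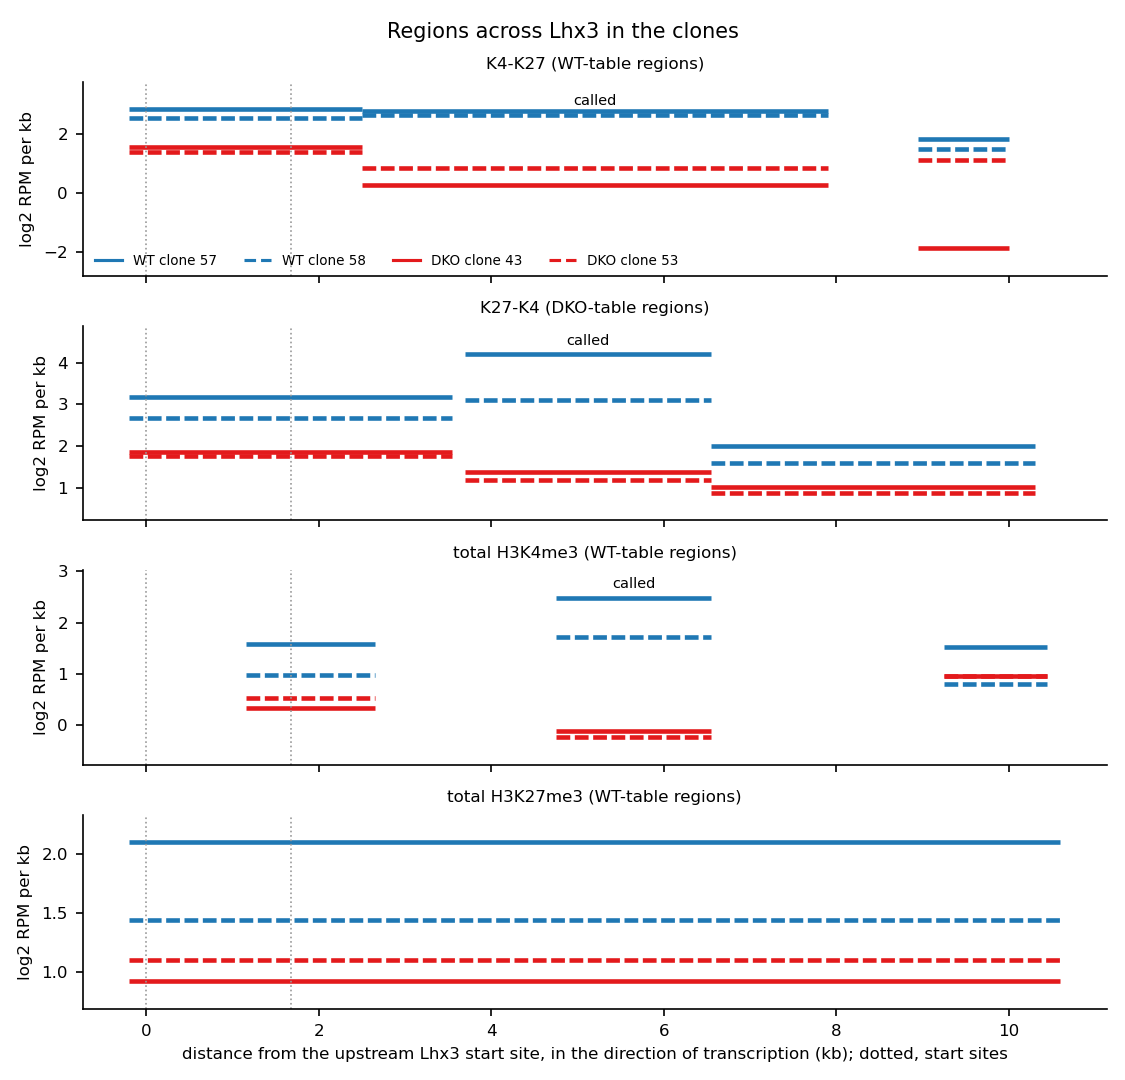
Log2 RPM per kb (vertical axis) in each clone over the regions of Lhx3, against distance from its upstream start site in the direction of transcription (kb), with WT clones in blue and DKO clones in red, solid and dashed for the 2 clones of a genotype; dotted lines are the start sites and each bar spans a region. The gap between genotypes is widest over the 3 regions marked as called, which share a stretch of 1800 bp.

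The other regions across Lhx3 differed by less, or were thinly covered. The start-site region in total H3K4me3 gave 1.58 and 0.97 in WT clones and 0.32 and 0.52 in DKO clones. The 3′ region gave 1.52 and 0.80 in WT clones and 0.95 and 0.95 in DKO clones, so the genotypes overlapped there. In total H3K27me3 a single region of 10800 bp covered the gene, with 2.10 and 1.44 in WT clones and 0.92 and 1.10 in DKO clones. A further K4-K27 region of 1050 bp at the 3′ end had a difference of -2.05 (adjusted p = 0.19) and rested on 35, 32, 3 and 30 reads.

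The stretch shared by the 3 called regions is chr2:26201701-26203500. It lies inside Lhx3 (chr2:26200212-26208249, minus strand, 6 exons), overlaps exons 3, 4 and 5 with 524 coding bases and holds 1276 bases outside exons. It is rich in CG, with 116 of them (6.44 per 100 bases), an observed over expected ratio of 0.69 and 61.2% GC. The part printed here, 300 bases with 32 CG and 51 coding bases, is read 5′ to 3′ on the minus strand with CG in capitals, from the GRCm38.p6 reference, because the 3 called regions all contain it.
Lhx3, internal stretch (chr2:26202451-26202750, minus strand): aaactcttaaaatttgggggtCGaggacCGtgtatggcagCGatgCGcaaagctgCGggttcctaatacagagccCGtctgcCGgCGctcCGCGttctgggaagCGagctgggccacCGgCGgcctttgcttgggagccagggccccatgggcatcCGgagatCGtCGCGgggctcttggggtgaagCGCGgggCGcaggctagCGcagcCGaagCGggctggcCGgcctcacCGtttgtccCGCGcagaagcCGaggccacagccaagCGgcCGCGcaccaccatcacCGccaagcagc

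Regions of other genes within 100 kb of Lhx3 were compared over the E14 tables. In K4-K27 the difference was -0.72 at Nacc2, -0.28 at Tmem250-ps and -0.21 at Qsox2, against -1.71 at Lhx3. In K27-K4 it was -0.24 at Nacc2, -0.13 at Tmem250-ps, -0.05 at Qsox2 and 0.03 at Gm52504, against -1.42 at Lhx3.

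Related genes were read by the same rule. Of the other LIM homeobox and Pou4 genes (Lhx4, Lhx6, Lhx8, Isl2 and Pou4f3), 0 of 5 were called in either orientation and 0 had an unadjusted p under 0.05 (limma). Of all regions, 8272 of 37723 in K4-K27 and 9090 of 46737 in K27-K4 had such a p. All 5 had a difference below 0 in both, with a median of -0.37 in K4-K27 and -0.50 in K27-K4, beside the -0.007 and -0.194 of all regions, of which 50.3% and 56.8% lay below 0 and 2.06% and 1.44% were called. Lhx8, which acts in cholinergic neurons of the forebrain, had the lowest, with -0.82 and -0.83. In E14 cells their enrichment was like that of the 10 genes, from 2.67 to 3.21 in K4-K27.

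Of 10 LIM cofactor and LIM-only genes, 9 had a K4-K27 region in the WT table and 5 a K27-K4 region, and 0 were called, with 1 gene (Lmo1) at an unadjusted p under 0.05 in each. Of all regions 2.06% and 1.44% were called, and 8272 of 37723 and 9090 of 46737 had such a p. Lmo1, a LIM-only gene of neural tissue, had -1.34 (adjusted p = 0.17) and -1.23 (adjusted p = 0.19). Over the E14 table Lmo3, another LIM-only gene, was called lower in K27-K4, with 1.22 and 0.70 in WT clones and -1.06 and -0.71 in DKO clones (-1.84, adjusted p = 0.00064). It was 1 of 10 listed genes, where 5.25% of the regions of that table, a choice made after the data had been seen, were called lower, and it was not refitted without single clones. Ssbp3, which binds Ldb1, was called between orientations in WT clones (-1.76, adjusted p = 0.041), 1 of 6 genes with a region, where 9.59% of all regions were called.

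Of 17 partner and downstream neuronal genes, 0 were called in either orientation, with 1 gene (Barhl1) at an unadjusted p under 0.05 in each. Of all regions 2.06% in K4-K27 and 1.44% in K27-K4 were called, and 8272 of 37723 and 9090 of 46737 had such a p. In K27-K4 all 17 differences lay below 0, with a median of -0.50. In K4-K27 16 of 17 did, with a median of -0.46, beside the medians of -0.194 and -0.007 over all regions. Of all regions 56.8% in K27-K4 and 50.3% in K4-K27 lay below 0. Over regions listed in both tables the medians of all regions were -0.171 and -0.071. Barhl1, a homeobox gene of cerebellar and inner ear neurons, was lowest, with -1.47 in K4-K27 (adjusted p = 0.18) and -1.07 in K27-K4 (adjusted p = 0.21). Chat and Slc18a3, which make and package acetylcholine in motor neurons, share a region and had -0.41 and -0.72.

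The ESC identity of the cultures was read from promoters alone, since RNA was not measured. Of the embryonic stem cell list 9 of 9 genes and of the constitutively active list 6 of 7 (not Hprt) had a level, and enrichment in total H3K27me3 at the constitutively active promoters was between -2.30 and -1.08 in E14 cells. The same promoters, which are poor in H3K27me3, still gave -0.68 to 1.04 in K4-K27 and 1.11 to 2.83 in K27-K4 of E14 cells, so the range in K27-K4 reached the lowest of the 10 genes (Lmx1b, 2.78). In WT clones they gave 0.88 to 2.26 in K4-K27, a range that holds the means of Lmx1b (1.70), Lhx1 (1.81), Lhx3 (1.94), Lhx9 (2.08) and Lhx2 (2.25), and -1.57 to -0.29 in K27-K4, below all 10 genes. A K4-K27 level in WT clones thus does not by itself separate these 5 genes from promoters poor in H3K27me3. The DKO differences in K4-K27 had medians of 0.27 for the embryonic stem cell list and 0.04 for the constitutively active list. In K27-K4 the embryonic stem cell list had a median of -0.52 over the 3 genes with a region in the WT table, all below 0, and no constitutively active gene had a region there. Klf4, a pluripotency factor, was called lower in K27-K4 over the E14 table (-1.57, adjusted p = 0.022), 1 of 8 genes with a region, against the same 5.25% called lower. Promoters of other cell types were also enriched in E14 K4-K27, from 1.09 to 2.65 for trophoblast, 2.57 to 3.27 for primitive endoderm, 1.51 to 2.32 for fibroblast (3 of 4 genes, not Col3a1) and 0.63 to 2.63 for neuron genes. Their DKO differences in K4-K27 had medians of -0.44, -0.49, 0.09 and -0.22, and those in K27-K4 medians of -0.32, -0.61, 0.04 and 0.04. The log2 of the enrichment summed over the neuron list was 6.14 and 5.54 in K4-K27 of WT clones and 6.18 and 5.28 in DKO clones. Map2 alone gave 5.70 and 5.00 in WT clones and 5.80 and 4.74 in DKO clones and made up most of that sum, and its part in the differences above was not tested. Without subtraction, in the region of the WT table, Map2 gave 3.71 and 3.04 in K4-K27 of WT clones. Rbfox3 of the same list gave 3.76 and 3.62, while Tubb3 and Snap25 were lower. The enrichment of Map2 thus rests in part on its IgG–IgG value.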

How the data were processed

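Sequential ChIP libraries of E14 ESCs (9) and of WT and DKO clones (17) were used. The authors trimmed reads with Trim Galore 0.6.6, aligned them with BWA 0.7.13 to mm10 and processed them with SAMtools 1.9 and Picard 2.6.0 (per the labels' processing notes). They deposited log2 RPM per kb of region, without IgG–IgG subtraction, in 12 tables. The study's methods call peaks with EPIC2 in bins of 100 bases, but 100% of the deposited regions have bounds in steps of 150 bases, and which caller made them (the processing notes also name MACS2) is not given in the sources used here. The authors tested read counts with edgeR, and those counts were not used. The 240 columns of the series were read, and 32 columns of no sample of the series were left out. Values stepped in whole reads, with 0.9 reads entered for 0, which gave reads per region and a depth of 6741244 to 47903462 reads. No count test was run on them.

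Regions were matched to start sites of the RefSeq annotation of GRCm38.p6, the assembly of mm10. All 10 genes were named, whatever their values, and 3 lists of related genes and the marker lists were read by the same rule. These genes and lists were chosen with earlier results of these data known. DKO and WT clones were compared with limma 3.58.1 in R 4.3.3 (trend, robust, two-sided) over regions of the WT table plus regions of the DKO table that overlap none of them, with Benjamini-Hochberg adjustment over all regions. A region was called at an adjusted p under 0.05 and a log2 difference above 1. With 2 clones per genotype, p-values measure the spread between clones. Orders were compared at identical regions in E14 cells and at overlapping regions in WT clones. Libraries of a clone or E14 replicate share cells, so they can be paired. Deviations of same-numbered libraries correlated at 0.193 in E14 cells and 0.109 in WT clones. The unpaired fit is reported, with the block as an alternative.

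Alternatives changed the scaling, the variance model, the filter on low values, the regions tested, the libraries in the fit, the log2 limit, the window (5 kb), the IgG–IgG library and the clones included. Python 3.11.15 with numpy 2.4.6, pandas 2.3.3 and matplotlib 3.10.9 was used for the rest.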

Additional observations from a re-analysis of the deposited data

How the results depend on the processing

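Lhx3 kept a difference below 0 in every fit that was run. With 1 choice changed at a time over all regions, and apart from the leave-outs over the E14 and DKO tables, it ran from -2.17 to -1.06 in K4-K27 (called in 2 of 16), -1.84 to -1.09 in K27-K4 (5 of 16), -2.28 to -0.55 in total H3K4me3 (1 of 13) and -1.09 to -0.43 in total H3K27me3 (1 of 16). The number of the 10 genes called, 0 as reported, became 1 in K4-K27 with the 5 kb window and over the E14 table, 1 in K27-K4 with quantile normalisation, without the regions of lowest level, over regions listed in both tables and over the E14 table, and 1 in total H3K4me3 with the 5 kb window, and that gene was Lhx3 each time. The 5 kb window read the regions called inside Lhx3 in K4-K27 (-2.17) and total H3K4me3 (-2.28), so its 2 calls are those given above and not further ones. Leaving out each clone gave 0 in K4-K27 and total H3K4me3, 0 to 2 in K27-K4 and 0 to 1 in total H3K27me3. Between orientations in WT clones, median centring gave 2 genes, and the replicate block, with libraries of a clone or E14 replicate paired, gave 0 in E14 cells and 0 in WT clones and changed no call at the 10 genes. Over all regions that block gave 1523 calls in E14 cells, against 0 without it, and 135 higher and 2099 lower in WT clones, against 12 and 1141. Pou4f2 turned sign in K27-K4 with quantile normalisation (0.10) and, without each clone, ran from -0.72 to 0.06. In K4-K27 the ranges without each clone crossed 0 at Pou4f1 (-0.77 to 0.15), Pou4f2 (-0.36 to 0.37), Lhx5 (-0.45 to 0.05), Lhx9 (-0.73 to 0.18) and Isl1 (-1.02 to 0.08). Genes above IgG–IgG in both libraries of total H3K4me3 numbered 10 in E14 cells, 7 in WT clones and 8 in DKO clones, and fell to 2, 2 and 2 with median centring and, in E14 cells, to 4 with the other IgG–IgG library. The cause was not tested. The K4-K27 call inside Lhx3 was also lost with quantile normalisation (adjusted p = 0.070), without the trend and robust options (0.072) and over regions listed in both tables (0.38). Over all regions the number called with the log2 limit ranged from 33 to 7349 in K4-K27 and from 85 to 3778 in K27-K4 across those fits, and in K27-K4 from 0 to 5072 with the leave-outs over the E14 and DKO tables. The E14 and DKO tables alone, every distinct region, the regions inside the domains and the leave-outs over them were chosen after the data had been seen. With 2 libraries a group, differences within the 95% intervals were not detectable.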
